A study of Mus musculus with 8 samples.

Results

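The 38 genes described here encode the kinetochore, the centromeric chromatin beneath it, the spindle assembly checkpoint and the chromosomal passenger complex. They were taken by symbol from a list and matched by Ensembl identifier, and all 38 were found among the 48440 genes of the expression table. Messenger RNA had been measured in 8 libraries, each from the jejunal epithelium of 1 female mouse carrying Sox9-EGFP, a fluorescent reporter of the transcription factor Sox9, on a C57BL/6J background. The sorted cells had a low reporter signal, a fraction in which crypt-base stem cells are enriched, and dying cells (Annexin-V or Sytox-blue), endothelial cells (CD31) and leukocytes (CD45) had been gated out. The 4 conventionalized mice, named A to D here after their littermate pairs, were born germ-free, moved at 8 to 10 weeks of age to another animal house, gavaged with fecal slurry from conventionally raised Sox9-EGFP mice and studied 2 weeks later. The 4 germ-free mice, A to D likewise, were their littermates and stayed germ-free. The move between animal houses and the microbiota therefore cannot be told apart. Depth on an approximate read scale ran from 6209041 to 19139683, lowest in germ-free mouse C, in which 1 read was worth 0.115 CPM (deposited signal relative to its library total, adjusted by a TMM scaling factor per library). A read was worth most in germ-free mouse A, 0.128 CPM.

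A kinetochore is built on centromeric nucleosomes that contain the histone H3 variant CENP-A. A constitutive inner layer, the CCAN, sits on those nucleosomes, and an outer layer of the KNL1, MIS12 and NDC80 complexes assembles on it for mitosis and holds microtubules. Kinetochores without attached microtubules recruit the checkpoint proteins that delay anaphase, while the chromosomal passenger complex brings the kinase Aurora B to wrong attachments so that they are released. In the intestine, stem and transit-amplifying cells of the crypt divide throughout life, and transcripts of many of these genes accumulate in G2 and mitosis.

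In conventionalized mice 9 of the 37 tested genes were higher and 0 were lower, or 24.3% called higher against 1.16% of all 10053 genes tested. Of all tested genes 3.76% were called lower. The test was limma on log2(CPM + 0.5), with adjusted p under 0.05 over all tested genes. The 9 were Oip5, Dsn1, Pmf1, Ndc80, Ska3, Cenpf, Mad2l1, Ttk and Incenp, and they rose 2.61-fold to 5.24-fold. They came from 7 of the 9 groups into which the list was divided by role, the exceptions being the CCAN and the group of Zwint with the RZZ complex. Positive fold changes were found for 36 of the 37 genes, a share of 97.3% against 70.2% of all tested genes. Their median log2 fold change was 1.40, and that of all tested genes was 0.32. With library size as the only scaling the medians were 1.19 and 0.09. Every conventionalized library was above every germ-free library for 24 of the 37 genes, or 64.9% against 9.03% of all tested genes, and the reverse held for 0 of them, against 5.88%. At an unadjusted p under 0.05, 28 were higher (75.7%, against 19.7%). With the littermate pair as a block, 22 genes were higher and 0 lower, against 8.08% of all tested genes called higher and 5.02% lower. With limma's array weights 21 were higher, against 7.61%. The expression minimum of 10 CPM in 4 libraries favours genes that are high in 1 group: 27 of the 37 passed it only because conventionalized libraries were counted, among them 7 of the 9 called. The other 10 were at 10 CPM or more in all 4 germ-free libraries, and Pmf1 and Incenp were the 2 of them that were called.

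**Figure D1:**
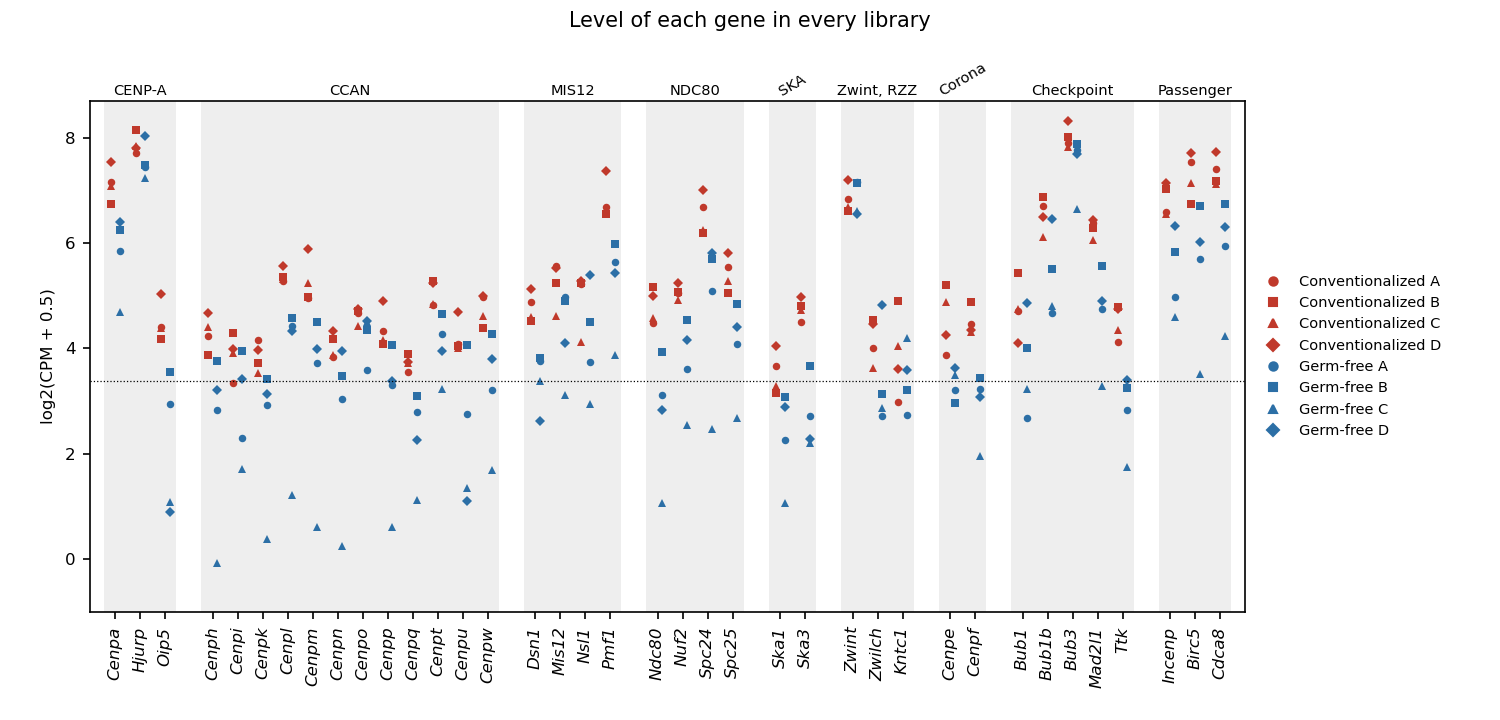
Level of each of the 38 genes in every library, as log2(CPM + 0.5), grouped by role; red symbols are the 4 conventionalized and blue symbols the 4 germ-free mice, the symbol shape gives the littermate pair, and the dotted line marks 10 CPM. The red symbols lie wholly above the blue for 24 of the 37 tested genes, and germ-free mouse C (blue triangles) is often lowest. The other tested genes overlap, among them Zwint, Kntc1, Cenpo and Hjurp.

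The calls depended on single libraries. Leaving out 1 conventionalized mouse at a time, 1 gene rose each time, and it was Ska3, against 0.32% of all tested genes called higher without mouse A, 0.142% without B, 0.233% without C and 0.14% without D. Without germ-free mouse A 2 genes rose (0.315% of all), without B 18 (4.17%), without C 16 (2.42%) and without D 6 (0.797%). Other scalings and filters gave 13 genes with upper-quartile scaling (2.62% of all), 7 with library size only (1.16%), 4 with no filter (0.117%), 8 with a minimum of 1 CPM (0.567%) and 9 with a mean of 10 CPM (1.18%). Pseudocounts of 1 and 0.1 gave 9 each (1.33% and 1.05%). Germ-free mouse C correlated least with its own group (median r = 0.792, against 0.871 to 0.943 for the other 7 libraries). It held the lowest value of 8 libraries for 27 of the 37 tested genes, and 49.4% of all tested genes were lowest there. Without it the median log2 fold change of the list was 0.98, against 0.22 for all genes tested. Conventionalized mouse A had goblet cell markers summing to 50885 CPM, against 8201 CPM at most in the other libraries. Without these 2 libraries 16 of 35 tested genes rose (2.45% of all), and the median was 0.96. In bulk samples, fewer dividing cells and less RNA per dividing cell cannot be told apart.

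**Figure D2:**
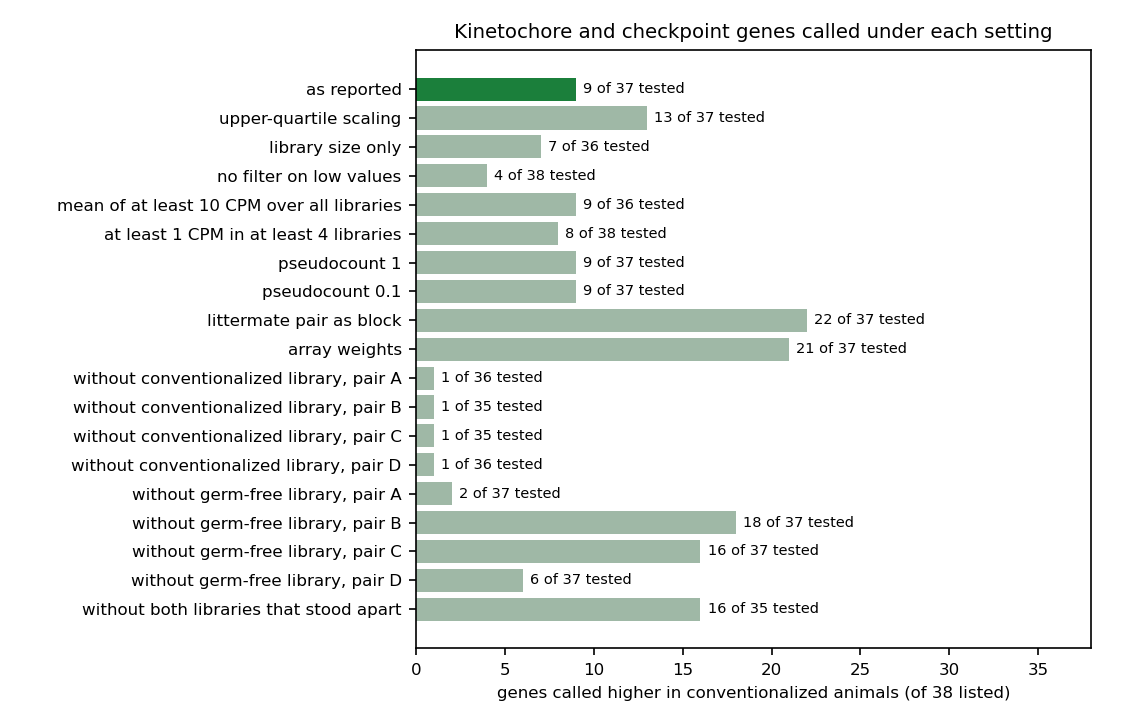
Number of the 38 genes called higher in conventionalized mice under each setting, one bar per setting, with the number tested beside it. The count was 9 as reported and lay between 1 and 22 over the other settings.

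Many genes transcribed in G2 and mitosis carry a CHR element, a short promoter sequence bound by the DREAM and MuvB complexes, together with CCAAT boxes bound by NF-Y. Promoter windows of 250 bases before to 50 bases after the annotated start were in RefSeq (GRCm38.p6) for 33 of the 38 genes, not for Nsl1, Spc24, Ska1, Zwilch or Incenp. Both strands were searched for TTTGAA or TTCGAA, the CHR core, and for CCAAT. A CHR core and a CCAAT match shared 1 base in 3 windows, those of Cenpw, Kntc1 and Cdca8. A CHR core match was present in 18 of 33 windows (54.5%), against 19.4% of 27025 genes, and a CCAAT match in 24 (72.7%), against 37.9%. Both were present in 16 windows (48.5%), against 7.7% of all genes. A CHR core match lay within 50 bases of the start in 15 windows (45.5%), against 5.29% of all genes, a range chosen after the positions were seen. Of the 8 called genes with a window 6 had a CHR core match, against 12 of the 25 that were not called. A CCAAT match was present in 4 of the 8 and in 20 of the 25, and both motifs in 4 of the 8 and in 12 of the 25. These splits were not tested. The 5 windows below belong to the gene with the lowest p of its group among those with a CHR core match, for the 5 groups with the lowest such p. Capitals mark the CHR core (TTTGAA, or TTCAAA on the other strand) and the CCAAT box (CCAAT, or ATTGG on the other strand), and the transcript starts at base 251.
Ska3, chr14:57826114-57826413, minus strand: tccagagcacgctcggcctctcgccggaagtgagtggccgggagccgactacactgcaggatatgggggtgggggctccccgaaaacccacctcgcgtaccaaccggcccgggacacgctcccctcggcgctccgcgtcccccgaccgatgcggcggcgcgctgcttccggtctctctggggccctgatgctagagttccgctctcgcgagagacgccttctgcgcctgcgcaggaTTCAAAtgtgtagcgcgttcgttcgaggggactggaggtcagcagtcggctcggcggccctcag
Ttk, chr9:83834439-83834738, plus strand: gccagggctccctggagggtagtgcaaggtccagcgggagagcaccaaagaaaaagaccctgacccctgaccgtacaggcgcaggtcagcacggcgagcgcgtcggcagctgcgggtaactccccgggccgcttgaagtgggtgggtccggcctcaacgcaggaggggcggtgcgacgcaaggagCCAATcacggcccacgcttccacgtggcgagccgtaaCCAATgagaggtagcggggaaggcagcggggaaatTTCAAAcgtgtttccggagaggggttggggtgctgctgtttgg
Oip5, chr2:119618456-119618755, minus strand: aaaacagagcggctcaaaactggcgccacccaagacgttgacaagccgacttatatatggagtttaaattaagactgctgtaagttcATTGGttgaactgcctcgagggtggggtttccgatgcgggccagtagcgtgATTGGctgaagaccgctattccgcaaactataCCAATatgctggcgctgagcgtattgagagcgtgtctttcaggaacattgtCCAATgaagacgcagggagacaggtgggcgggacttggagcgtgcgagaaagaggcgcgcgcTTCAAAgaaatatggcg
Cenpf, chr1:189688037-189688336, minus strand: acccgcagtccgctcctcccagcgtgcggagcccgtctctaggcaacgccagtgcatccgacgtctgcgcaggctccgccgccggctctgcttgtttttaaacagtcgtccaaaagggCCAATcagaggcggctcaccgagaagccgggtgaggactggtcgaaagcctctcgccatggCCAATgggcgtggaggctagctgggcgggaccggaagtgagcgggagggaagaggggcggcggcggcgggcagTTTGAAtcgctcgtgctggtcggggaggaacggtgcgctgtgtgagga
Ndc80, chr17:71526808-71527107, minus strand: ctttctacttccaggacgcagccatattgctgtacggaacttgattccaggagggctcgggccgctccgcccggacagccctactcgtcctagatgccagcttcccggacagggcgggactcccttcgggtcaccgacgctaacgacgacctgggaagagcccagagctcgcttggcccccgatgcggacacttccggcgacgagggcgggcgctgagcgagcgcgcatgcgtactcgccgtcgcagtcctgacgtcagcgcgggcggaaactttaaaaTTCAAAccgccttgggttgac
All 5 windows held the CHR core in the form TTTGAA, on the strand of the gene in Cenpf and on the other strand in the rest, starting at -14 in Ska3, 2 in Cenpf, 7 in Ttk, 29 in Ndc80 and 33 in Oip5, counted in bases from the start site at 0. Ttk and Cenpf had 2 CCAAT boxes upstream of the start, Oip5 had 4, and Ska3 and Ndc80 had none in this window. These are matches of letters, and binding was not measured.

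**Figure D3:**
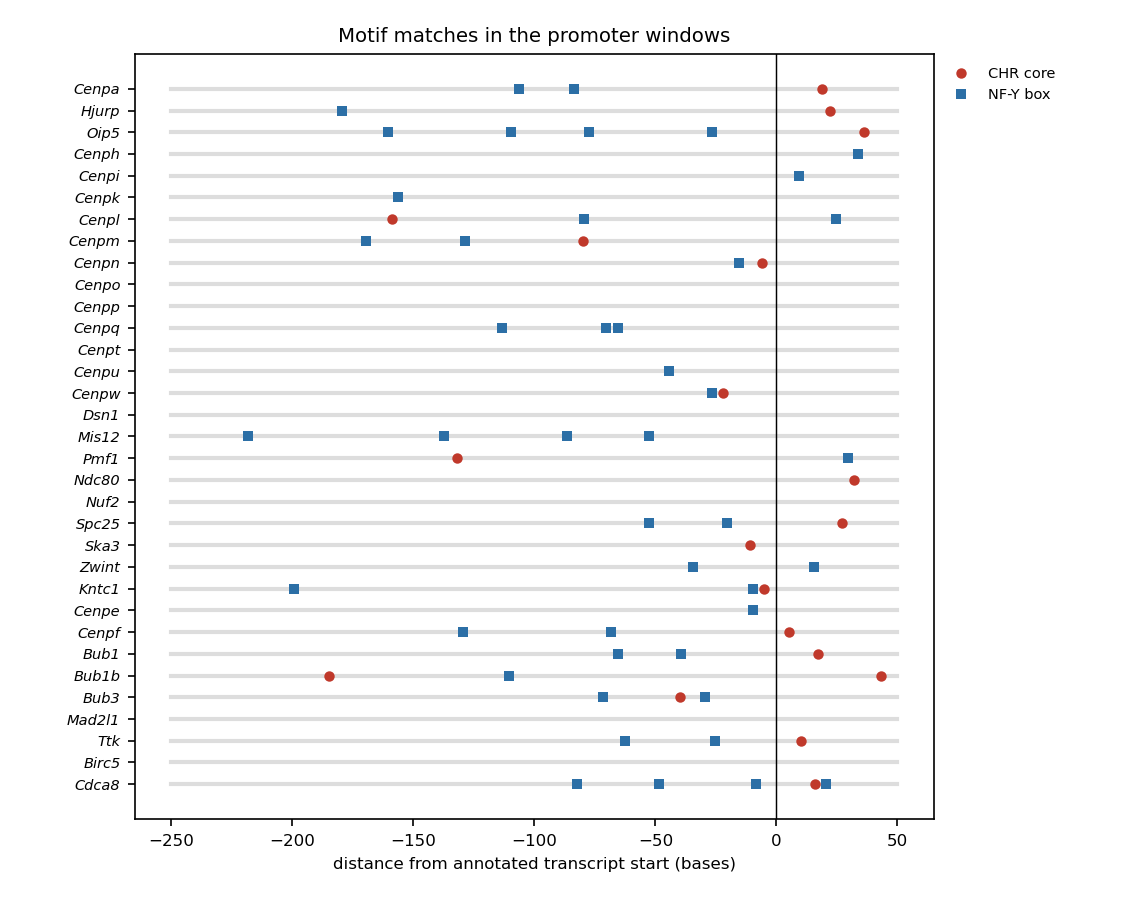
Positions of CHR core matches (red circles) and NF-Y boxes (blue squares) in the 33 promoter windows, 1 row per gene; the horizontal axis is the distance in bases from the annotated transcript start, at 0. CHR core matches lie within 50 bases of the start in 15 windows.

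Of the genes for the CENP-A nucleosome and its loading, 1 of 3 rose, against 1.16% of all tested genes. Oip5 (ENSMUSG00000072980.3, GRCm38 chromosome 2, 119609512 to 119618469) encodes a subunit of the MIS18 complex, which prepares centromeres for new CENP-A. It was at 20.8, 17.7, 20.5 and 32.4 CPM in conventionalized mice A to D, against 7.16, 11.3, 1.63 and 1.36 CPM in germ-free mice A to D. The groups did not overlap, and germ-free mice C and D were the lowest (log2 fold change 2.39, SE 0.56, adjusted p = 0.0284). Cenpa, the histone itself, averaged 142 ± 32.3 CPM in conventionalized mice and 60.5 ± 25.9 CPM in germ-free mice (SD, n = 4 each). It did not pass in limma (log2 fold change 1.33, adjusted p = 0.0528) and rose with the littermate block (adjusted p = 0.0222). Hjurp, the chaperone that deposits CENP-A, was at 208, 284, 228 and 224 CPM against 174, 177, 149.9 and 262 CPM in germ-free mice. Those groups overlapped, with germ-free mouse D above 3 conventionalized libraries (log2 fold change 0.33, adjusted p = 0.459).

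No gene of the CCAN passed the test, although all 12 fold changes were positive and 10 genes were higher in all 4 pairs. Of all tested genes 70.2% had positive fold changes and 28.4% were higher in all 4 pairs. The CCAN median log2 fold change was 1.45, and adjusted p ran from 0.0778 to 0.36. At an unadjusted p under 0.05, 9 of the 12 were higher, against 19.7% of all tested genes. With the littermate block 5 rose, Cenpl, Cenpm, Cenpt, Cenpu and Cenpw, and with array weights 3 rose. Those fits called 8.08% and 7.61% of all tested genes higher. Cenpu, of the subcomplex that also holds CENP-O, CENP-P and CENP-Q, had the lowest p of the 12. It was at 16.4, 15.96, 15.7 and 25.5 CPM in conventionalized mice A to D, against 6.30, 16.3, 2.07 and 1.65 CPM in germ-free mice. germ-free mouse B lay among the conventionalized ones (log2 fold change 1.88, SE 0.58, adjusted p = 0.0778, and 0.0455 with the block). Cenpo had the highest p of the 12, at 25.0, 25.6, 21.0 and 26.6 CPM against 11.6, 19.9, 22.1 and 22.3 CPM in germ-free mice (log2 fold change 0.40, adjusted p = 0.36). Its germ-free mouse C was not low.

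The other CCAN genes showed how much of the difference lay in pair C. Cenpm, whose product pairs with CENP-I, was at 30.8, 31.1, 37.5 and 58.3 CPM in conventionalized mice, against 12.7, 22.2, 1.03 and 15.4 CPM in germ-free mice. Cenpl, the partner of CENP-N on the CENP-A nucleosome, was at 38.6, 40.7, 39.2 and 46.8 CPM, against 20.9, 23.3, 1.82 and 19.8 CPM in germ-free mice. For both the groups did not overlap, and germ-free mouse C was by far the lowest. Cenph was at 0.454 CPM in that library, Cenpn at 0.689, Cenpk at 0.808 and Cenpp at 1.03 CPM. At 0.115 CPM per read there, these values rest on few reads, and the size of their pair C differences is uncertain. Without germ-free mouse C the CCAN median log2 fold change was 0.86, and 1 of the 12 rose, Cenpm, against 2.42% of all tested genes. Cenpt, which reaches from the inner kinetochore to NDC80, averaged 33.0 ± 5.82 CPM in conventionalized mice and 16.8 ± 6.61 CPM in germ-free mice, and Cenpw, its histone-fold partner, 26.7 ± 5.40 and 10.9 ± 6.82 CPM.

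In the MIS12 complex, the bridge between inner and outer kinetochore, 2 of 4 genes rose, against 1.16% of all tested genes. Dsn1 (ENSMUSG00000027635.15, chromosome 2, 156995265 to 157007154) was at 28.8, 22.6, 23.8 and 34.5 CPM in conventionalized mice A to D, against 13.2, 13.6, 9.88 and 5.68 CPM in germ-free mice. Every conventionalized value was above every germ-free one (log2 fold change 1.38, SE 0.33, adjusted p = 0.0306). Pmf1 (ENSMUSG00000028066.15, chromosome 3, 88394143 to 88410331) was at 102, 93.1, 96.0 and 165 CPM, against 49.5, 62.5, 14.1 and 42.5 CPM in germ-free mice. The groups were again apart, with 1 high conventionalized library, that of pair D (log2 fold change 1.57, SE 0.41, adjusted p = 0.0418). Nsl1 was at 36.6, 37.3, 16.9 and 38.2 CPM, against 13.0, 22.2, 7.22 and 41.7 CPM in germ-free mice, and its highest value was a germ-free one (log2 fold change 0.81, adjusted p = 0.253). Mis12 averaged 38.5 ± 10.5 CPM in conventionalized mice and 21.3 ± 10.8 CPM in germ-free mice (log2 fold change 0.97, adjusted p = 0.152).

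The NDC80 complex is the main microtubule coupler of the kinetochore. All 4 of its genes had every conventionalized library above every germ-free one, against 9.03% of all tested genes. In limma 1 rose and with the littermate block 4 rose, against 1.16% and 8.08% of all tested genes. Ndc80 (ENSMUSG00000024056.9, chromosome 17, 71496100 to 71526857), which binds the microtubule, was at 21.9, 35.3, 23.4 and 31.4 CPM in conventionalized mice, against 8.17, 14.9, 1.61 and 6.63 CPM in germ-free mice. It was 4.18-fold higher (log2 fold change 2.06, SE 0.50, adjusted p = 0.0317). Spc24, at the end of the complex that faces the kinetochore, had the highest p of the 4. It was at 103, 72.8, 75.4 and 129 CPM, against 33.4, 51.5, 5.05 and 55.3 CPM in germ-free mice, and pair C alone showed a log2 difference above 2, of 3.77 (log2 fold change 1.77, adjusted p = 0.0951, and 0.0272 with the block). Nuf2, the partner of NDC80, averaged 33.2 ± 3.23 CPM in conventionalized mice and 14.4 ± 7.55 CPM in germ-free mice, and Spc25, the partner of SPC24, 43.2 ± 9.94 and 17.8 ± 9.31 CPM.

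Ska3 had the lowest p of the list and was called in all 8 fits that left out 1 library. With Ska1 it encodes a complex that helps NDC80 track the ends of microtubules. Ska3 (ENSMUSG00000021965.2, chromosome 14, 57806561 to 57826185) was at 22.2, 27.3, 26.2 and 31.0 CPM in conventionalized mice A to D, against 6.13, 12.3, 4.13 and 4.39 CPM in germ-free mice. The lowest conventionalized value was well above the highest germ-free one, that of pair B (4.08-fold, log2 fold change 2.03, SE 0.37, adjusted p = 0.00825). With 1 library left out its adjusted p was 0.0388 at most. Ska1 was the 1 gene under the expression minimum. It was at 12.2, 8.36, 9.26 and 16.1 CPM, against 4.31, 7.99, 1.61 and 6.92 CPM in germ-free mice, with no overlap. With no minimum on expression its log2 fold change was 1.21 (adjusted p = 0.309).

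Zwint and the genes of the RZZ complex, which recruits dynein and checkpoint proteins, gave 0 calls in limma, 0 at an unadjusted p under 0.05 and 0 with the block. With array weights 1 of the 3, Zwilch, rose. Zwint, whose product binds KNL1, was at 114, 97.6, 102 and 146 CPM in conventionalized mice, against 143, 140.3, 97.4 and 92.99 CPM in germ-free mice. The groups overlapped, and it was higher in 2 of 4 pairs (log2 fold change -0.03, SE 0.28, adjusted p = 0.946). Zwilch was at 15.5, 22.7, 11.8 and 21.5 CPM, against 6.07, 8.31, 6.79 and 27.8 CPM in germ-free mice, with the highest value in germ-free mouse D (log2 fold change 0.77, adjusted p = 0.261). Kntc1, which encodes the Rod subunit, was at 7.41, 29.4, 16.02 and 11.7 CPM, against 6.17, 8.79, 17.8 and 11.5 CPM (log2 fold change 0.45, adjusted p = 0.503). Its largest difference was in pair B.

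Both genes of the fibrous corona, the outermost layer of an unattached kinetochore, were higher in all 4 pairs, and 1 of 2 rose in limma. The shares of all tested genes were 28.4% and 1.16%. Cenpf (ENSMUSG00000026605.14, chromosome 1, 189640606 to 189688086) was at 21.4, 29.2, 19.3 and 20.01 CPM in conventionalized mice, against 8.90, 10.3, 3.42 and 7.98 CPM in germ-free mice. Its pairs differed by log2 values between 1.22 and 2.34 (log2 fold change 1.57, SE 0.37, adjusted p = 0.0289). Cenpe, a kinesin that carries chromosomes to the spindle equator, was at 14.3, 36.3, 29.0 and 18.5 CPM, against 8.75, 7.36, 10.7 and 11.9 CPM in germ-free mice. The germ-free values lay close together and below all conventionalized ones (log2 fold change 1.23, SE 0.35, adjusted p = 0.0619, and 0.045 with the block). Unlike most of the list, Cenpe was not low in germ-free mouse C.

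Among the 5 spindle checkpoint genes 2 rose, and 3 with the block, against 1.16% and 8.08% of all tested genes. Ttk (ENSMUSG00000038379.15, chromosome 9, 83834689 to 83872389), the MPS1 kinase that starts checkpoint signalling, was at 17.0, 27.0, 19.8 and 26.3 CPM in conventionalized mice, against 6.64, 9.08, 2.89 and 10.0 CPM in germ-free mice. The groups did not overlap (log2 fold change 1.69, SE 0.40, adjusted p = 0.0284). Mad2l1 (ENSMUSG00000029910.14, chromosome 6, 66535390 to 66547220), the MAD2 inhibitor of anaphase, was at 82.4, 77.9, 66.3 and 86.2 CPM, against 26.4, 46.6, 9.27 and 29.5 CPM in germ-free mice. The conventionalized values were close to each other and all above the germ-free ones (log2 fold change 1.67, SE 0.40, adjusted p = 0.0292). Bub1b, the BUBR1 component of the checkpoint inhibitor, was at 104, 118, 68.8 and 90.2 CPM, against 25.0, 45.2, 27.3 and 87.1 CPM in germ-free mice. The groups overlapped at germ-free mouse D, and it missed the threshold (log2 fold change 1.19, adjusted p = 0.0837) and rose with the block (adjusted p = 0.0345).

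The remaining checkpoint genes overlapped between groups. The kinase gene Bub1 was at 25.6, 42.8, 26.5 and 16.8 CPM in conventionalized mice, against 5.87, 15.6, 8.85 and 28.6 CPM in germ-free mice. It was higher in pairs A to C and lower in pair D (log2 fold change 1.06, adjusted p = 0.154). Bub3, which brings BUB1 and BUBR1 to KNL1, was at 239, 256, 226 and 319.9 CPM, against 216, 234, 99.1 and 205 CPM in germ-free mice. The groups overlapped, and germ-free mouse C was lowest (log2 fold change 0.52, SE 0.33, adjusted p = 0.294).

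All 3 genes of the chromosomal passenger complex had every conventionalized library above every germ-free one, against 9.03% of all tested genes. Of the 3, 1 rose in limma and 3 with the block, against 1.16% and 8.08% of all tested genes. Incenp (ENSMUSG00000024660.8, chromosome 19, 9872296 to 9899551), the scaffold that activates Aurora B, was at 96.4, 130.4, 93.6 and 139.9 CPM in conventionalized mice, against 30.9, 56.5, 23.6 and 80.0 CPM in germ-free mice. It rose in limma (log2 fold change 1.40, SE 0.37, adjusted p = 0.0426), and with the block its adjusted p was 0.0106. Birc5, or survivin, which binds the complex to centromeric histone H3, was at 185, 106, 140.1 and 209 CPM, against 51.3, 104, 10.9 and 64.8 CPM in germ-free mice. Pair B hardly differed (log2 difference 0.04) and pair C differed most (3.62), and the fold change did not pass without the block (log2 fold change 1.80, adjusted p = 0.0725, and 0.0286 with the block). Cdca8, or borealin, averaged 166 ± 33.6 CPM in conventionalized mice and 65.8 ± 36.7 CPM in germ-free mice (log2 fold change 1.56, adjusted p = 0.0624, and 0.0193 with the block).

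**Figure D4:**
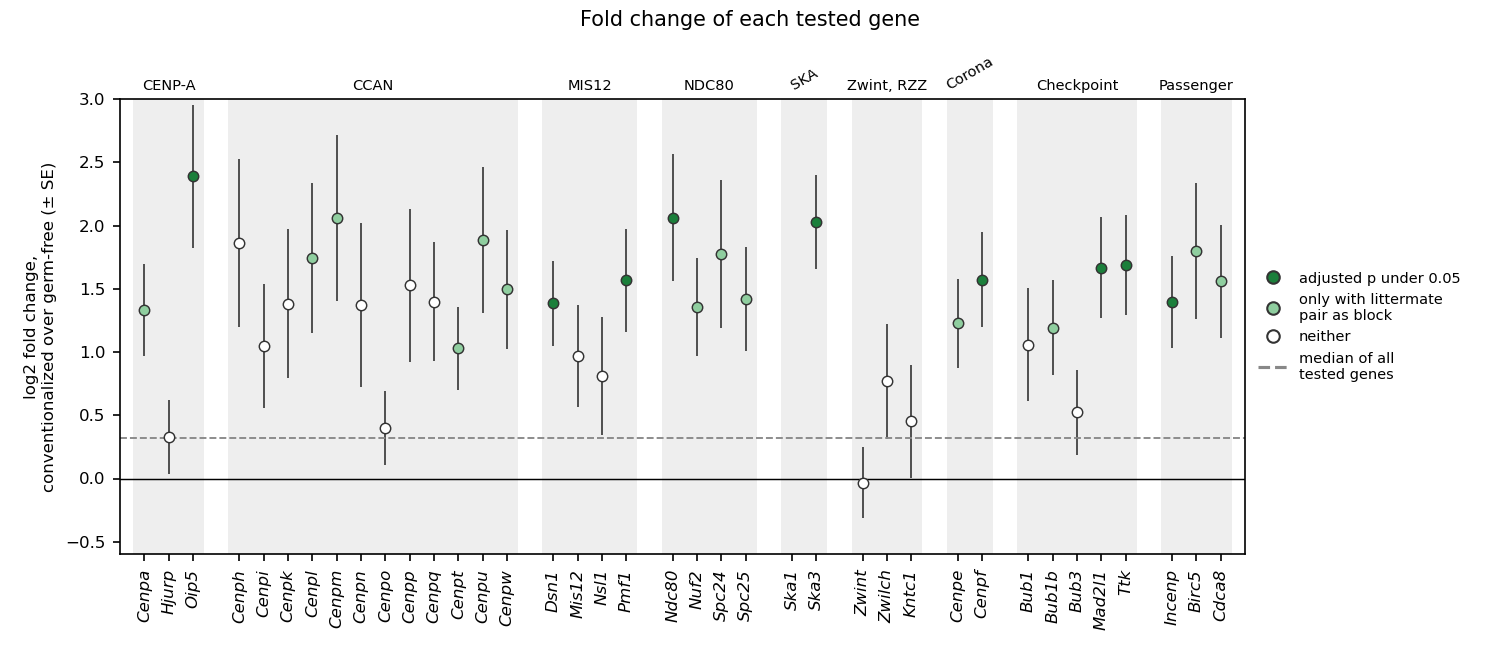
Log2 fold change of conventionalized over germ-free mice for the 37 tested genes, with the standard error as bars, grouped by role; dark green points passed at adjusted p under 0.05, light green points only with the littermate pair as a block, and the dashed line is the median of all tested genes, 0.32. Zwint (-0.03) is lowest, Hjurp (0.33) lies at the dashed line, and Oip5 (2.39) is highest.

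Within littermate pairs the size of the difference varied more than its sign. The median log2 difference over the 37 genes was 1.29 in pair A, 0.63 in pair B, 2.52 in pair C and 1.22 in pair D. Medians and positive counts per pair were not computed over all tested genes. Germ-free mouse C had the lowest median level over all tested genes, at log2(CPM + 0.5) of 4.93, against 5.21 in conventionalized mouse C. Positive differences numbered 36, 35, 35 and 33 of the 37 in these pairs, and 29 genes (78.4%) were higher in all 4 pairs, against 28.4% of all tested genes. The groups by role did not share 1 order of pairs. CCAN genes differed most in pair C (median 3.03) and least in pair B (0.36), and NDC80 genes likewise (3.05 and 0.51). Checkpoint genes had similar medians in pairs A, B and C (1.62, 1.37 and 1.53) and a lower one in pair D (0.64). Corona genes had 1.84 in pair B and 1.87 in pair C, against 0.95 in pair A and 0.94 in pair D. These orders were seen in the data and were not tested.

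**Figure D5:**
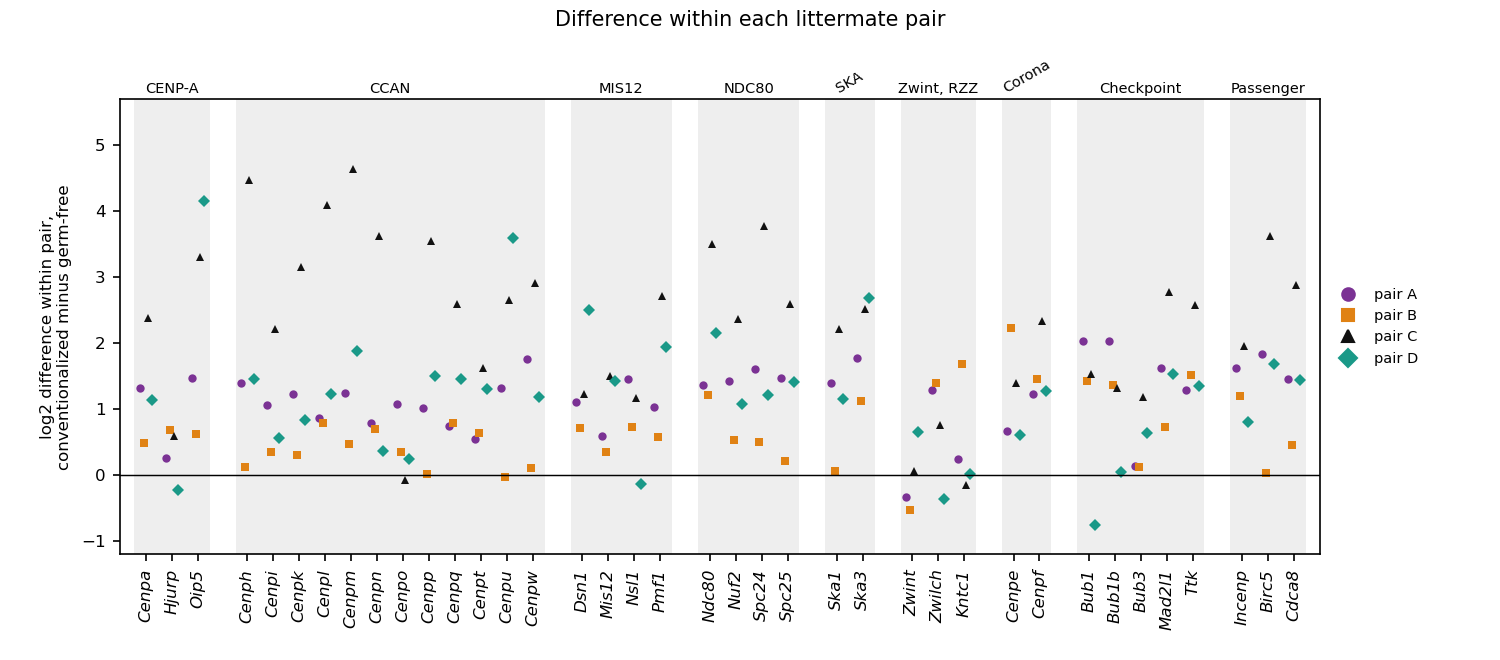
Log2 difference, conventionalized minus germ-free, within each littermate pair for each of the 38 genes, grouped by role; each symbol is 1 pair. Pair C (black triangles) holds the largest differences for most CCAN and NDC80 genes, and the median over tested genes was 0.63 in pair B (orange squares).

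Levels can be compared between genes only per length, here CPM per kb of exon merged over annotated transcripts. On that scale the mean levels of the NDC80 complex in conventionalized mice were 36.9 for Spc24, 13.6 for Spc25, 5.24 for Nuf2 and 4.31 for Ndc80. In germ-free mice they were 14.1, 5.58, 2.27 and 1.20 in the same order of genes. The 4 subunits, present in equal numbers in the assembled complex, thus kept the same order of transcript level on this scale in both groups. That order depends on the merged exon length, and which annotated transcripts were expressed was not examined. The level of Ndc80 is also uncertain because similar annotated transcripts may share its reads. In the passenger complex the levels per kb were 47.1 for Birc5, 32.1 for Cdca8 and 26.6 for Incenp in conventionalized mice, and 17.0, 12.7 and 11.0 in germ-free mice. Among the MIS12 genes Pmf1 was highest, at 28.0 per kb in conventionalized and 10.4 per kb in germ-free mice, and Nsl1 was at 6.08 and 3.97.

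Of 24 tested genes for other kinetochore, centromere and checkpoint proteins 4 rose and 0 fell, with a median log2 fold change of 1.13, and 11 rose with the block. These are 16.7% and 45.8% of the 24, against 1.16% and 8.08% of all tested genes. Among the 4 that rose without the block were Kif2c, a kinesin that takes microtubules apart (log2 fold change 1.34, adjusted p = 0.0197), Plk1, a kinase of mitotic entry and attachment (1.74, adjusted p = 0.0355) and Aurkb, the Aurora B kinase (1.90, adjusted p = 0.0357). Aurkb was at 149, 149, 139 and 173 CPM in conventionalized mice, against 47.2, 75.6, 11.1 and 64.4 CPM in germ-free mice, apart as for the other passenger genes. Knl1, the scaffold on which the checkpoint assembles, had a log2 fold change of 0.74 (adjusted p = 0.236). Cenpc1, whose product links CENP-A to MIS12, had 0.28 (adjusted p = 0.522), and the centromere DNA-binding gene Cenpb 0.27 (adjusted p = 0.546). Of 26 genes for the anaphase-promoting complex, cohesin and separase, 1 rose, Cdc20, the target of the checkpoint (log2 fold change 1.71, adjusted p = 0.0343), and 0 fell. Their median log2 fold change was 0.47, and 3 rose with the block, or 3.85% and 11.5% of the 26 without and with the block, against the 1.16% and 8.08% of all tested genes.

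Markers of proliferation and of cell types also differed between the groups, in both directions. Of all tested genes 1.16% were called higher and 3.76% lower, and 8.08% and 5.02% with the block. Positive fold changes made up 70.2% of all tested genes, and the median log2 fold change of all was 0.32. Of 6 proliferation markers 3 rose, and 6 with the block, among them Mki67 (log2 fold change 1.56, adjusted p = 0.0192), and their summed level was 918 to 1368 CPM in conventionalized mice and 154 to 681 CPM in germ-free mice. Of 15 enteroendocrine markers 8 fell and 0 rose, and 10 fell with the block, with summed levels of 10599 to 27961 CPM in conventionalized mice and 45131 to 104729 CPM in germ-free mice. Of 10 tested stem cell markers 1 rose, Lgr5, and 5 with the block. All 10 fold changes were positive, with a median log2 fold change of 1.28, and the summed levels were 5335 to 10443 CPM in conventionalized and 1014 to 5594 CPM in germ-free mice. Of 10 tested enterocyte markers 3 fell and 0 rose, while 5 had positive fold changes, and their median log2 fold change was -0.11. Their sums were 1004 to 3994 CPM in conventionalized mice and 2158 to 5463 CPM in germ-free mice. Of the 8 Paneth markers 1 rose, and 0 of 8 goblet and 0 of 7 tested tuft markers were called. No gene of these lists was at 0 in all libraries. Leukocyte markers summed to 39.0 to 47.5 CPM in conventionalized mice and 29.0 to 33.5 CPM in germ-free mice, and the 1 tested of 12, Cd14, rose. Endothelial markers summed to 5.49 to 32.8 CPM in conventionalized mice and 33.2 to 50.1 CPM in germ-free mice, and 1 of 2 tested, Pecam1, fell. The part of cell composition in the kinetochore result was not tested.

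For several genes the reads may be shared with other loci, since the sources used here do not state that strand was used in counting. Exons of 11 of the 38 genes overlap those of genes on the opposite strand. For Cenpu 26.7% of the exon length lies in Primpol, for Cenpo 19.0% in Adcy3, for Cenpp 12.3% in Ippk and for Oip5 9.67% in Nusap1, itself a mitotic gene. Annotated transcripts at least 90% identical over 300 bases or more were found for Ndc80, Cenpw, Bub3, Mad2l1, Cenpe and Zwint. Those of Ndc80 included 2700099C18Rik (mean deposited signal 53.9) and Gm1976 (31.4), so the division of reads between them and Ndc80 is uncertain. The match of Cenpw recurs in many unrelated genes, such as Rbbp8 and Orc3, and its level is uncertain likewise.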

How the data were processed

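Each library was made from 10 ng of total RNA of 1 mouse with a SMARTer kit for low input and Nextera XT, and read from one end, per the labels' protocols. STAR 2.4.2a, Trimmomatic 0.36, DESeq2 1.12.4, R 3.3.1 and the build mm10 are named in the submitters' processing notes without their roles, and the series text adds Salmon, edgeR and a minimum of 10 CPM. The authors deposited a table of normalized signal for genes, which are not read counts. In genes with 1 annotated transcript 99.8 to 99.9% of values under 200 reads were whole multiples of 1 step per library (tolerance 0.02), against 25.4 to 28.5% in genes with several transcripts, so whole reads could not be recovered and no count test was run.

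Identifiers were matched to GENCODE M21 (GRCm38; 48058 of 48440 genes). TMM factors (trimming 30% of ratios and 5% of intensities) turned signal into CPM in R 4.3.3. A gene was tested if 4 or more libraries reached 10 CPM, which left 10053, on the scale log2(CPM + 0.5), which understates changes of low genes, by limma 3.58.1 (trend, robust, two-sided, Benjamini-Hochberg over all tested genes, called under 0.05), with condition as the only term. The alternatives were other scalings, filters and pseudocounts, the littermate block, array weights and omission of libraries. The labels name the littermate pairs, so the design pairs the libraries. The fit as reported and every alternative except the littermate block left this pairing out. Deviations from the group means correlated within pairs A to D at 0.14, -0.16, 0.31 and -0.01.

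The members and lists were chosen with earlier results of these data known. Values per library are given for each called gene and for the lowest and highest p of each group by role, and further examples were chosen after their values were seen. Promoter windows come from RefSeq GRCm38.p6, the first one listed per gene. Depth limits low values: 3 reads in the shallowest library are under 1 CPM. One gene counted among the other pathway genes is not reported here by name.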

Additional observations from a re-analysis of the deposited data

Results flagged for a closer look

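In 6 of the 76 groups of 4 libraries (38 genes in 2 conditions) 1 library lay far from the other 3 on the log2 scale, where chance flags about 5% of groups. The measure is the gap to the nearest library divided by the range of the group, set against Dixon's 95% critical value. Germ-free mouse C was far below its group for Cenpl (1.82 CPM, ratio 0.93), Bub3 (99.1 CPM, ratio 0.848) and Cenpk (0.808 CPM, ratio 0.838). It also had the lowest depth and the lowest correlation with its group, and the part of these in its low values was not tested. Conventionalized mouse D was above its group for Cenpu (25.5 CPM, ratio 0.905) and Pmf1 (165 CPM, ratio 0.839). It had the greatest depth, and the part of depth in these values was not tested. Nsl1 was low in conventionalized mouse C (16.9 CPM, ratio 0.95).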

How the results depend on the processing

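Of the 37 tested genes 9 rose as reported, and 0 fell in any fit. With the littermate pair as a replicate block 22 rose, with array weights 21, with no filter 4, without both libraries that stood apart 16, and with 1 library left out between 1 and 18. With upper-quartile scaling 13 rose, with library size only 7, with a minimum of 1 CPM 8, and with a mean of 10 CPM or either other pseudocount 9. The list's median log2 fold change stayed between 0.96 and 1.63 over all settings. Over all genes 117 were higher and 378 lower (23.6% higher). Higher and lower genes numbered 263 and 408 (39.2%) with upper-quartile scaling, 45 and 311 (12.6%) with no filter, 812 and 505 (61.7%) with the block, 765 and 608 (55.7%) with array weights, 235 and 407 (36.6%) without both libraries that stood apart, and 14 to 410 and 151 to 372 with 1 library left out. Zwint (-0.03 as reported) ranged from -0.18 to 0.06 with 1 library left out and turned positive without conventionalized mouse B (log2 fold change 0.041) or C (0.019), or germ-free mouse A (0.064) or B (0.025). The cause of these changes was not tested. Depth limits the lowest values, and not in germ-free mouse C alone. In that library 1 read was worth 0.115 CPM, and in germ-free mouse A 0.128 CPM, the most of the 8 libraries.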
